A study of Mus musculus with 6 samples.

Results

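The mRNAs of 10 genes of the transforming growth factor β (TGF-β) system were followed in mammary glands engrafted with epithelium that had or lacked the secreted protease Adamts18. They were the 3 ligands Tgfb1, Tgfb2 and Tgfb3, the 3 receptors Tgfbr1, Tgfbr2 and Tgfbr3, and the 4 latent TGF-β binding proteins Ltbp1, Ltbp2, Ltbp3 and Ltbp4. The genes were chosen by symbol, and 10 of 10 were found among the 34590 symbols of the count table. All 10 passed the filter on low counts, which left 17345 genes to be tested.

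The libraries came from 3 host mice. In each mouse the contralateral inguinal glands (gland number 4) carried either WT.EGFP+ or Adamts18-/-.EGFP+ epithelium, giving 3 libraries of each genotype. In the study's grafts, donor epithelium from a C57BL/6JOlaHsd background was placed in fat pads of young WT females that had been cleared of their own epithelium, so that the stroma of both glands was WT host tissue. EGFP was driven by the chicken β-actin promoter in both genotypes. The Adamts18-/- allele lacks exons that encode the catalytic site and may still be transcribed. The study also found Adamts18 expression in the stroma, by RT-PCR of WT fat pads carrying Adamts18-/- epithelium. The Adamts18-/- grafts were all on the side labelled R and the WT grafts on the side labelled L, so genotype and side cannot be told apart, nor can host, donor and experiment. The age of the glands used for RNA-seq is not given in the sources used here. The labels describe FACS-sorted GFP+ mammary epithelial cells, whereas the study's text describes profiled glands.

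TGF-β ligands are secreted in a latent form. The propeptide stays wrapped around the mature dimer and is usually linked to an LTBP, which anchors the complex to fibrillin and fibronectin fibres in the matrix until integrins or proteases release the ligand. Free TGF-β binds TGFBR2, which phosphorylates TGFBR1, which in turn phosphorylates SMAD2 and SMAD3. In the mammary gland the pathway is known as a restraint on ductal growth and as an inducer of matrix genes.

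Some properties of the libraries touch every value given here. Total counts ranged from 53875123 to 71595924 per library. Adamts18 itself was measured at 3.61, 9.92 and 6.80 CPM (read counts scaled to the same library total) in the WT libraries of mice 1, 2 and 3 and at 2.75, 4.87 and 3.29 CPM in their Adamts18-/- counterparts. It was lower in 3 of 3 mice, with overlapping groups (log2 fold change -0.83, SE 0.19, unadjusted p = 0.00922, adjusted p = 0.987 by edgeR). The summed CPM of 24 pan-epithelial markers lay between 1942 and 2761 in the WT libraries and between 1484 and 1857 in the Adamts18-/- libraries. All 24 had a negative log2 fold change (median -0.39) and 9 fell past the thresholds used below. That count was 22 without mouse 1, 2 without mouse 2 (22 of 24 negative) and 5 without mouse 3. Over all genes tested, 319 of 17345 fell by the same rule. It was 481 of 17596 without mouse 1, 214 of 17507 without mouse 2 and 286 of 17383 without mouse 3. Markers of cells that a sort for epithelium would remove were at far higher levels: the 12 fibroblast markers summed to between 10084 and 13997 CPM and the 10 adipocyte markers to between 9959 and 24359 CPM over the 6 libraries. None of the listed markers of any cell type was at 0 in all libraries. Mouse 3 stood apart from mice 1 and 2, with the B cell list at 1763 and 2329 CPM in its WT and Adamts18-/- libraries against 210 to 499 CPM in the others. Mouse 2 was set apart by reads of Y-linked genes in both of its libraries, with 473 and 506 counts of Ddx3y against at most 3 in the other mice.

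A gene was called changed by genotype at the study's thresholds, a fold change of Adamts18-/- over WT under 0.8 or over the reciprocal of 0.8, together with p under 0.05 before adjustment, in an edgeR quasi-likelihood fit with the mouse as a block. Of the 10 genes, 2 fell (Tgfb3 and Ltbp2) and 0 rose. Over all genes tested, 1.84% were lower and 1.17% were higher by the same rule. With p-values adjusted over all genes, 0 of the 10 and 0% of all genes were called by edgeR. Without adjustment, 2 of the 10 genes and 670 of all 17345 had a p under 0.05. DESeq2 called 1 of the 10 (Tgfb3) and 0.409% of all genes by adjusted p. The median log2 fold change of the 10 genes was -0.19, beside 0.00065 for all genes tested, and 7 of the 10 were negative. The lean was uneven between hosts. The median difference of the 10 genes was -0.073 in mouse 1, -0.0044 in mouse 2 and -0.51 in mouse 3, and without mouse 3 the median fold change was -0.051. In libraries of mixed tissue, fewer cells of a type and less RNA per cell cannot be told apart, and this holds for every difference below.

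**Figure D1:**
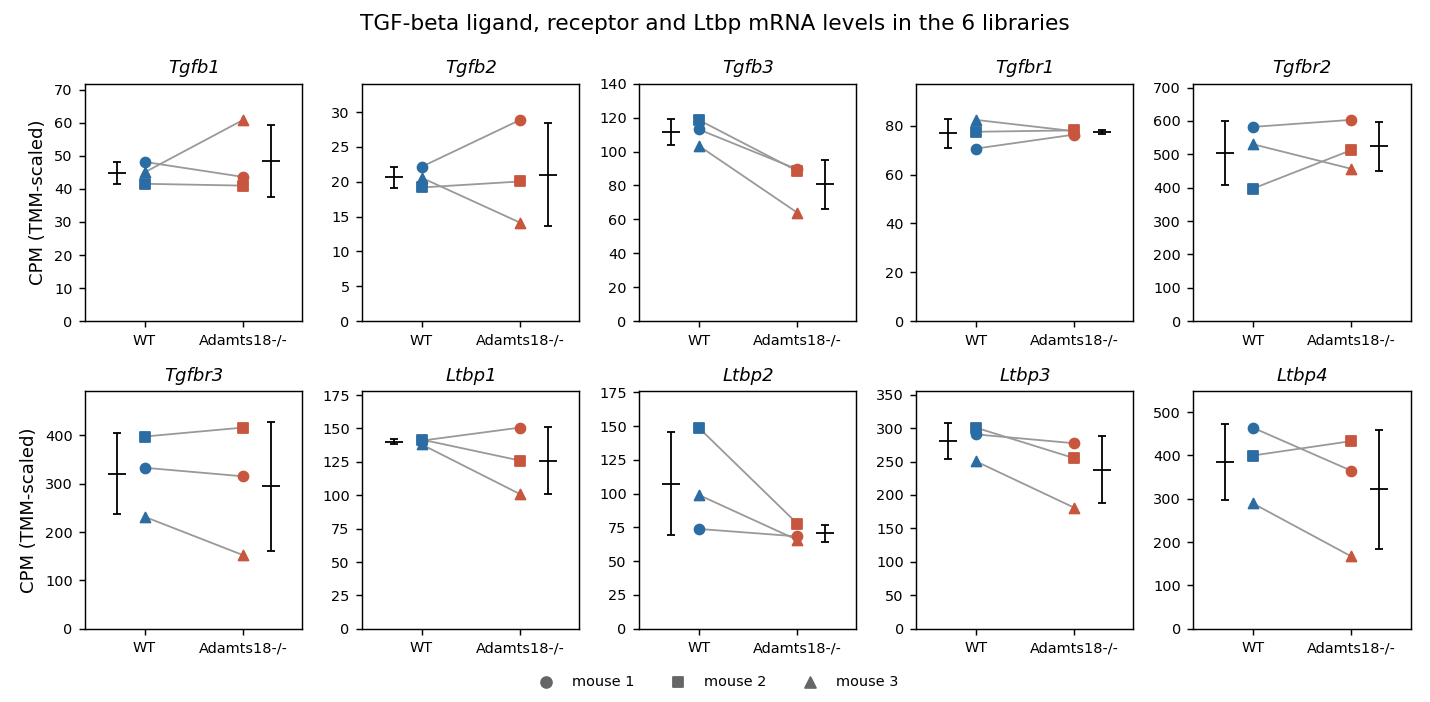
CPM of each gene (y axis, linear, from 0) in the WT and Adamts18-/- libraries of mice 1 (circles), 2 (squares) and 3 (triangles), with lines joining the glands of 1 mouse and bars giving the mean ± SD of each genotype (n = 3). The Adamts18-/- libraries lie between 64.0 and 89.5 CPM for Tgfb3, all below the WT libraries, whereas the genotypes overlap for Ltbp2.

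Among the ligands, Tgfb3 alone passed the thresholds. TGF-β3 is the ligand best known from palate fusion and from the onset of mammary involution. Tgfb3 (GRCm38 chr12:86056745-86079041, minus strand) was at 113, 119 and 104 CPM in the WT libraries of mice 1, 2 and 3 and at 89.5, 88.6 and 64.0 CPM in the Adamts18-/- libraries. Every Adamts18-/- library was below every WT library, and the lowest was that of mouse 3. The means were 112 ± 7.68 CPM (SD, n = 3) and 80.7 ± 14.5 CPM (SD, n = 3), a fold change of 0.715 (log2 -0.48, SE 0.093, unadjusted p = 0.00420, adjusted p = 0.987 by edgeR). Tgfb3 was the only one of the 10 genes whose genotypes did not overlap in the lower direction, a pattern held by 2.63% of all genes tested.

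The difference in Tgfb3 had the same direction in 3 of 3 mice, at -0.34, -0.42 and -0.69 on the log2 scale in mice 1, 2 and 3. Summed epithelial markers were also lower in each mouse, the pan-epithelial sum least so in mouse 1 and most in mouse 2. The log2 ratio of the summed pan-epithelial markers, Adamts18-/- over WT, was -0.088, -0.76 and -0.57 in the same mice, and that of the 11 myoepithelial markers was -0.31, -0.49 and -0.61. The median difference of the single pan-epithelial markers was 0.048, -0.80 and -0.50, in mouse 1 of the other sign than the sum. The part of epithelial content in the Tgfb3 difference was not tested. When the libraries were scaled to the 24 epithelial markers in place of all genes, the log2 fold change of Tgfb3 was -0.064 (unadjusted p = 0.861, edgeR), with the median of all genes shifted to 0.42. DESeq2 gave Tgfb3 an adjusted p of 0.0343, and over the 11 alternatives the adjusted p ranged from 0.0343 to 1. The exons of Tgfb3 overlap the predicted genes Gm37804 and Gm48008 on the opposite strand, and whether the counting used strand is not given in the sources used here.

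Tgfb1 and Tgfb2 did not pass. TGF-β1 is the ligand most widely expressed by stromal and immune cells. Tgfb1 (chr7:25687002-25705077, plus strand) was at 48.2, 41.6 and 45.0 CPM in the WT libraries and at 43.6, 41.0 and 60.9 CPM in the Adamts18-/- libraries of mice 1, 2 and 3. The Adamts18-/- library of mouse 3 was above all others and the remaining 5 were close together (log2 fold change 0.09, SE 0.13, unadjusted p = 0.526, edgeR). That library was also the highest for T cell markers, with the 8 genes summing to 549 CPM against 34.3 to 199 CPM in the other 5. The part of T cells in the Tgfb1 level was not tested, and without mouse 3 the log2 fold change of Tgfb1 was -0.073.

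The propeptide of TGF-β2, unlike those of the other ligands, lacks the RGD motif that integrins bind. Tgfb2 (chr1:186622792-186705989, minus strand) was the scarcest of the 10 genes per exon length and was measured at 22.2, 19.2 and 20.6 CPM in the WT libraries and 28.9, 20.0 and 14.1 CPM in the Adamts18-/- libraries. The WT values sat within a narrow band, and the Adamts18-/- values lay above it in mouse 1, inside it in mouse 2 and below it in mouse 3. The SD was 1.49 CPM among WT and 7.43 CPM among Adamts18-/- libraries (n = 3 each), and the log2 fold change was -0.03 (SE 0.20, unadjusted p = 0.885, edgeR). The 3 ligands therefore went different ways in mouse 3, with log2 differences of 0.44 for Tgfb1, -0.54 for Tgfb2 and -0.69 for Tgfb3.

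**Figure D2:**
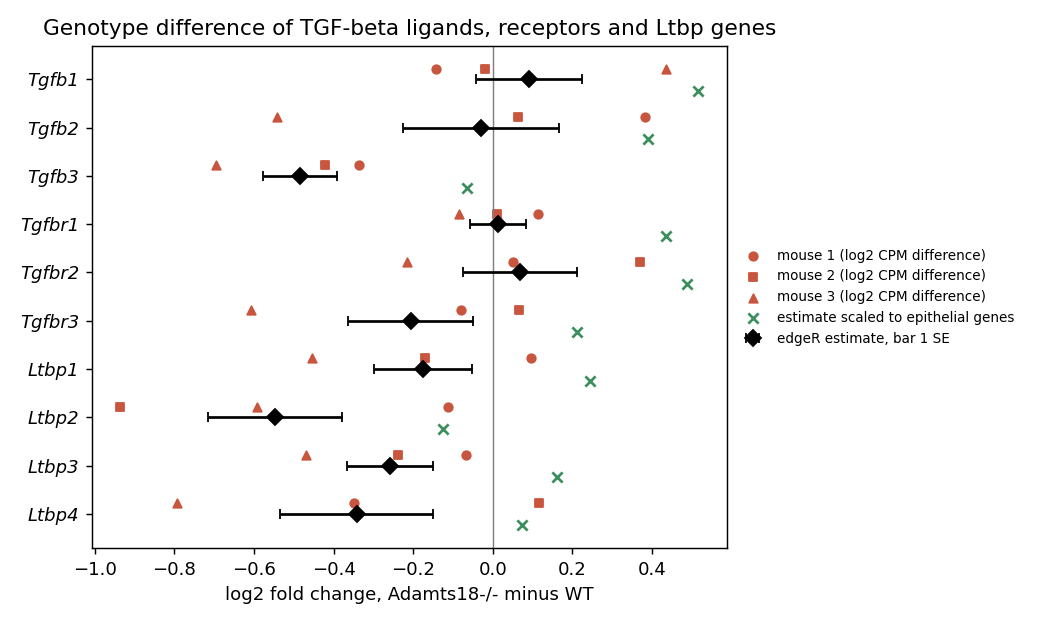
Log2 fold change of Adamts18-/- minus WT (x axis) for each gene, with the edgeR estimate and 1 SE (diamond and bar), the log2 CPM difference within each mouse (red circle, square and triangle for mice 1, 2 and 3) and the estimate after scaling to 24 epithelial markers (green cross). The Tgfb3, Ltbp2 and Ltbp3 differences are below 0 in 3 of 3 mice, and the crosses lie to the right of the diamonds for all 10 genes, with Tgfb3 at -0.064 and Ltbp2 at -0.13 still below 0.

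As the reads from the 3 ligand genes come from the same library, their shares do not depend on how libraries were scaled. Tgfb3 took 61.7%, 66.2% and 61.2% of ligand reads in the WT libraries of mice 1, 2 and 3 and 55.2%, 59.2% and 46.0% in the Adamts18-/- libraries. The genotypes did not overlap. Its share was lower by a mean of -9.52 percentage points (SD 4.92, n = 3 pairs, lower in 3 of 3 mice). Shares are parts of the same total, so a lower share of Tgfb3 raises the sum of the others. The share of Tgfb1 was 26.3%, 23.2% and 26.6% in WT and 26.9%, 27.4% and 43.8% in Adamts18-/-. Each Adamts18-/- library was above all WT libraries, by a small margin in mice 1 and 2 and a wide one in mouse 3. The mean difference in the Tgfb1 share was 7.37 points with an SD of 8.71. In CPM, Tgfb1 was lower in mice 1 and 2 and higher in mouse 3 (log2 differences -0.14, -0.019 and 0.44). The share of Tgfb2 was 12.1%, 10.7% and 12.2% in WT and 17.8%, 13.4% and 10.2% in Adamts18-/-, higher in 2 of 3 mice. A two-sided exact sign-flip permutation test over 3 pairs cannot go below p = 0.25, the value it gave for Tgfb3 and Tgfb1 (0.625 after Benjamini-Hochberg adjustment over 10 shares); for Tgfb2 it was 0.5. Divided by exon length before the shares were taken, Tgfb3 was lower by -8.61 points (SD 5.08, n = 3 pairs).

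**Figure D3:**
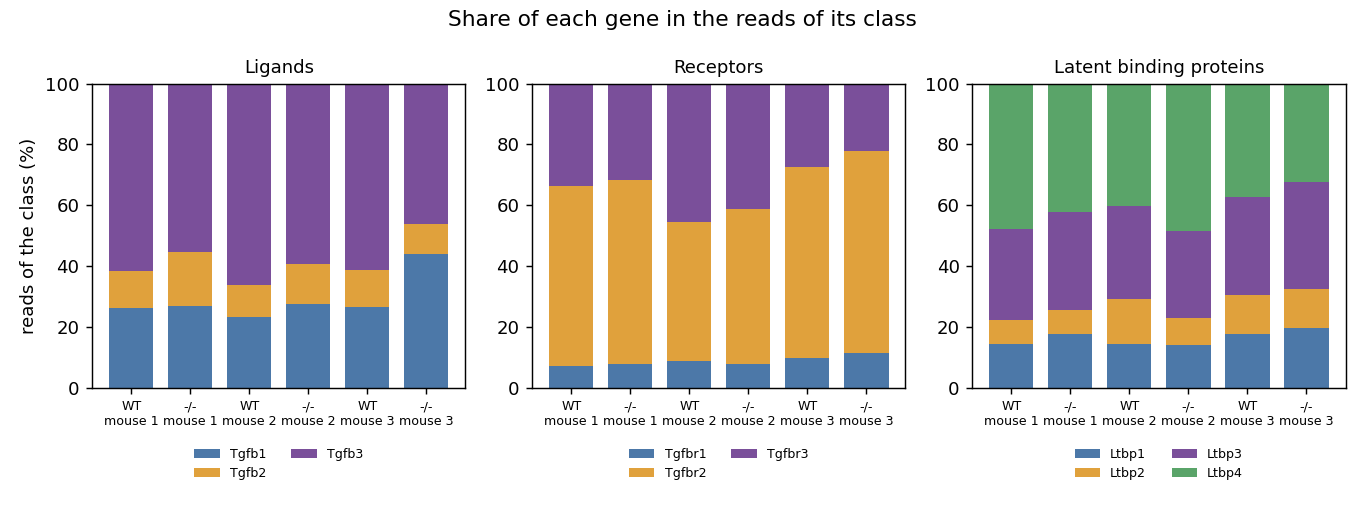
Share of each gene in the reads of its class (y axis, percent) for ligands, receptors and latent binding proteins, 1 bar per library, with the WT and Adamts18-/- (-/-) libraries of a mouse side by side. The Tgfb3 segment is smaller in the Adamts18-/- library of each mouse, at 55.2%, 59.2% and 46.0% of ligand reads.

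None of the receptors passed the thresholds (0 of 3; 0 at an unadjusted p under 0.05 by edgeR). TGFBR1 is the type I receptor kinase that phosphorylates SMADs. Tgfbr1 (chr4:47353222-47414931, plus strand) was the steadiest of the 10 genes, at 70.7, 77.6 and 82.5 CPM in the WT libraries and 76.4, 78.2 and 77.8 CPM in the Adamts18-/- libraries. The Adamts18-/- values lay inside the WT range, and the log2 fold change was 0.01 (SE 0.071, unadjusted p = 0.861, edgeR).

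TGFBR2 is the type II kinase that binds free ligand. Tgfbr2 (chr9:116084293-116175360, minus strand) was at 582, 397 and 530 CPM in WT and at 603, 513 and 457 CPM in Adamts18-/- libraries. The groups overlapped, with the Adamts18-/- library higher in mice 1 and 2 and lower in mouse 3 (log2 fold change 0.07, SE 0.14, unadjusted p = 0.656, edgeR).

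TGFBR3, or betaglycan, is a co-receptor without kinase activity that presents ligand, TGF-β2 above all. Tgfbr3 (chr5:107106570-107289629, minus strand) was at 333, 398 and 232 CPM in WT and at 315, 416 and 152 CPM in Adamts18-/- libraries. Both libraries of mouse 2 were above both of mouse 1, which were above both of mouse 3, so that the libraries lay in order of host, with overlapping genotypes ( log2 fold change -0.21, SE 0.16, unadjusted p = 0.25, edgeR). Among receptor reads, the share of Tgfbr3 was 33.8%, 45.6% and 27.4% in WT and 31.7%, 41.3% and 22.2% in Adamts18-/-, lower in 3 of 3 mice by a mean of -3.88 points (SD 1.62), and that of Tgfbr2 was higher in 3 of 3 mice by 3.56 points. These shares are parts of the same total, so their differences are not separate results. Both gave p = 0.25 in the exact sign-flip permutation test, the smallest that 3 pairs allow. In CPM, Tgfbr3 was higher in mouse 2 (log2 difference 0.066) and Tgfbr2 was lower in mouse 3 (-0.22). Tgfbr1 took 7.17% to 11.3% of receptor reads, with overlapping genotypes (p = 0.75, same exact test).

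Of the latent binding proteins, Ltbp2 passed the thresholds and all 4 had a negative log2 fold change. LTBP2 is the member of its family that does not bind latent TGF-β. It associates with fibrillin-1 and bears on elastic fibres and microfibrils. Its promoter is shown because Ltbp2 was 1 of the 2 genes called. The stretch is from RefSeq, in GRCm38.p6 at chr12:84876533-84876741 on the minus strand, written in the direction of transcription and ending at the base before the annotated gene (GENCODE M21, chr12:84783212-84876532). Its 209 bases are 63.2% G or C.

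Ltbp2 promoter: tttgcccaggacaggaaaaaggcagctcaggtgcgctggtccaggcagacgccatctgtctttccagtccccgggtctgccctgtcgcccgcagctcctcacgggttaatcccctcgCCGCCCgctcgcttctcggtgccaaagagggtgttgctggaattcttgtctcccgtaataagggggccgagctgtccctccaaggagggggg

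The capitals mark the 1 match of the GC box GGGCGG, which lies on the reverse strand and which 26.5% of 32851 promoter windows of the same length also hold. Both strands were searched. There was no match of the TATA box TATAAA (9.51% of windows), of the AP-1 site TGACTCA (3.80%), of the cyclic AMP element TGACGTCA (0.977%), of the Smad elements GTCTAGAC (0.158%) and CAGACA (14.8%) or of the TEAD site GGAATG (11.03%), the letters of which do not occur in this window. RefSeq windows were matched for 8 of the 10 genes, and not for Tgfb3 and Tgfbr3.

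Ltbp2 was at 73.9, 149 and 99.1 CPM in the WT libraries of mice 1, 2 and 3 and at 68.4, 77.8 and 65.7 CPM in the Adamts18-/- libraries. The WT libraries were widely spread, that of mouse 2 being the highest, and the Adamts18-/- libraries were close together at the lower end, with the groups overlapping through the WT library of mouse 1. The means were 107 ± 38.2 CPM and 70.6 ± 6.36 CPM (SD, n = 3 each), a fold change of 0.684 (log2 -0.55, SE 0.17, unadjusted p = 0.0251, adjusted p = 0.987 by edgeR). The difference within mice was -0.11, -0.94 and -0.59, so that mouse 1 showed little of it. The call was lost without mouse 2 (log2 fold change -0.35, unadjusted p = 0.0885), without the mouse as a block (-0.60, unadjusted p = 0.0581) and after scaling to the epithelial markers (-0.13, unadjusted p = 0.729, edgeR throughout). The log2 ratio of the summed epithelial markers was likewise nearest to 0 in mouse 1 and farthest in mouse 2; its part in the Ltbp2 difference was not tested.

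LTBP1 is the main carrier of latent TGF-β1 in many tissues. Ltbp1 (chr17:75005568-75392512, plus strand) was at 141, 142 and 138 CPM in the WT libraries, within an SD of 1.91 CPM, and at 151, 126 and 101 CPM in the Adamts18-/- libraries. Mouse 1 was above the WT band and mice 2 and 3 below it (log2 fold change -0.18, SE 0.12, unadjusted p = 0.217, edgeR).

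LTBP3 is required for bone and tooth growth and binds all latent TGF-β isoforms. Ltbp3 (chr19:5740904-5758532, plus strand) was at 291, 301 and 251 CPM in WT and 277, 255 and 181 CPM in Adamts18-/- libraries. It was lower in 3 of 3 mice with overlapping groups, by -0.07, -0.24 and -0.47 on the log2 scale, and did not pass (log2 fold change -0.26, SE 0.11, unadjusted p = 0.0672, edgeR). With Tgfb3 and Ltbp2, Ltbp3 made 3 of the 10 genes that were lower in all 3 mice, against 12.7% of all genes tested.

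LTBP4 binds latent TGF-β1 weakly and is needed for elastic fibre assembly. Ltbp4 (chr7:27305136-27337692, minus strand) was at 464, 400 and 290 CPM in WT and 365, 433 and 167 CPM in Adamts18-/- libraries. The Adamts18-/- library was lower in mice 1 and 3 and higher in mouse 2 (fold change 0.789, log2 -0.34, SE 0.19, unadjusted p = 0.140, edgeR). Without mouse 2 the log2 fold change was -0.57 (unadjusted p = 0.0254), past the thresholds, and without mouse 3 it was -0.11 (unadjusted p = 0.497). The shares of the 4 genes in the reads of their class overlapped between genotypes for each: Ltbp4 took 32.5% to 48.6%, Ltbp3 28.6% to 35.2%, Ltbp1 14.1% to 19.6% and Ltbp2 7.62% to 15.02%. The exact sign-flip permutation p was 0.5 for Ltbp1 and Ltbp3 and 1 for Ltbp2 and Ltbp4. For Ltbp2 the share differed by -6.30 points in mouse 2 and by 0.32 and 0.024 points in mice 1 and 3.

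Levels were compared between genes as CPM per kilobase of exon, averaged over the 6 libraries. Tgfbr2 stood first at 62.7, with a range of 48.5 to 73.7, followed by Ltbp4 at 54.6 (25.9 to 71.9) and Tgfbr3 at 47.0 (23.3 to 63.6). Tgfbr2 exceeded Ltbp4 in 3 of 6 libraries, and these neighbours do not differ beyond their spread. Ltbp4 exceeded Tgfbr3 in 6 of 6 libraries, though their ranges overlap. Ltbp3 at 28.6 (20.0 to 33.2) and Tgfb3 at 28.4 (18.9 to 35.1) were level, each being the higher in 3 of 6 libraries. A lower step held Ltbp1 at 12.4 (9.42 to 14.1), Tgfbr1 at 11.8 (10.8 to 12.6) and Ltbp2 at 10.9 (8.03 to 18.2), which overlapped. Tgfb1 at 9.27 (8.13 to 12.1) was below Ltbp2 in 3 of 6 libraries and was above Tgfb2 at 3.60 (2.44 to 4.99) in 6 of 6 libraries. Per length, the ligand order was therefore Tgfb3, Tgfb1 and Tgfb2, and each lay above the next in 6 of 6 libraries.

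The hosts were compared in the same fit. By edgeR, 0 of the 10 genes differed between the mice at an adjusted p under 0.05, against 0.628% of all genes tested, and 2 of the 10 did at an unadjusted p under 0.05, as did 27.2% of all genes. They were Tgfbr3 (unadjusted p = 0.00757, adjusted p = 0.0871) and Ltbp4 (unadjusted p = 0.0244, adjusted p = 0.133). DESeq2 called both (adjusted p = 6.10e-06 for Tgfbr3 and 0.00102 for Ltbp4), and with them 19.2% of all genes, so that 2 of 10 is near the share over all genes. Both were lowest in the 2 libraries of mouse 3. The adipocyte markers followed a like order, with summed levels of 12817 and 9959 CPM in mouse 3 against 20784 to 24359 CPM in mice 1 and 2. The Schwann, pericyte and endothelial sums were also lowest in mouse 3. Their part in these levels was not tested.

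The other genes of the pathway were described from lists of latency and activation, signalling and target genes. Of 26 tested genes of latency and activation, 0 passed the thresholds in either direction (1 at an unadjusted p under 0.05 by edgeR, 0 by adjusted p), with a median log2 fold change of -0.058. Integrin subunits that release the ligand gave -0.12 (SE 0.084, unadjusted p = 0.208) for Itgav, 0.18 (SE 0.31, unadjusted p = 0.588) for Itgb6 and -0.32 (SE 0.17, unadjusted p = 0.127) for Itgb8. Thbs1, whose product thrombospondin activates the latent complex, was at -0.078 (SE 0.20). Furin, the convertase that cuts the propeptide, was at -0.13 (SE 0.075, unadjusted p = 0.147). Fbn1, the fibrillin to which LTBPs bind, was at 0.27 (SE 0.12, unadjusted p = 0.0777) and higher in 3 of 3 mice. The gene at an unadjusted p under 0.05 was Lrrc33, which tethers latent TGF-β on macrophages and whose difference of 0.26 (SE 0.083, unadjusted p = 0.0276, edgeR) was within the fold limits.

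Of 24 tested signalling genes, 0 passed (2 at an unadjusted p under 0.05 by edgeR, 0 by adjusted p) and the median was -0.012. The receptor-regulated Smad2 and Smad3 were at 0.0058 (SE 0.086) and 0.090 (SE 0.091), and their shared partner Smad4 at 0.0099 (SE 0.065). The inhibitor Smad7 was at 0.17 (SE 0.15) and the repressor Skil at 0.041 (SE 0.086). The ubiquitin ligase gene Nedd4l, at -0.24, and the deubiquitinase gene Usp15, at 0.19, were the 2 with an unadjusted p under 0.05, inside the fold limits.

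Of 25 tested target genes, 3 fell (Ctgf, Tagln and Acta2) and 1 rose (Junb), with a median log2 fold change of 0.083. Over all genes tested, 1.84% were lower and 1.17% were higher by the same rule. No target had an adjusted p under 0.05 by edgeR, and 4 had an unadjusted p under 0.05, as did 670 of all 17345 genes. DESeq2 called 3 targets (adjusted p = 0.0198 for Ctgf, 0.0201 for Acta2 and 0.0492 for Junb) and 0.409% of all genes. With scaling to the epithelial markers, 0 targets fell and 4 rose (Junb, Cdkn1a, Postn and Timp1), with Ctgf at -0.037 and Acta2 at -0.024. That scaling shifted most genes upward: of all 17345 genes, 1311 rose and 23 fell past the thresholds. Ctgf, a matricellular protein gene that Yap and Taz also induce, was at 151, 266 and 107 CPM in WT and 119, 202 and 69.0 CPM in Adamts18-/- libraries (log2 fold change -0.46, SE 0.088, unadjusted p = 0.00420, edgeR). It was lower in each mouse, and both libraries of mouse 2 were above the rest. Junb, an AP-1 subunit gene, was at 88.6, 51.4 and 39.6 CPM in WT and at 119, 69.1 and 49.0 CPM in Adamts18-/- libraries (0.39, SE 0.067, unadjusted p = 0.00263, edgeR). It was higher in each mouse, with overlapping groups.

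The contractile genes Acta2 and Tagln are TGF-β targets in fibroblasts and at the same time marks of myoepithelium. Acta2 was at 376, 657 and 367 CPM in WT and at 309, 474 and 245 CPM in Adamts18-/- libraries (log2 fold change -0.45, SE 0.10, unadjusted p = 0.00922, edgeR). Tagln was at 196, 301 and 217 CPM in WT and 162, 252 and 154 CPM in Adamts18-/- libraries (-0.34, SE 0.089, unadjusted p = 0.0141, edgeR). Both were lower in 3 of 3 mice. All 11 myoepithelial markers, of which Acta2 is 1, had a negative log2 fold change (median -0.46). Of these, 8 passed, Acta2 included, and 1.84% of all genes tested were lower by the same rule. The number of myoepithelial markers that passed was 5 without mouse 2, where 214 of all 17507 genes fell. It was 0 without the mouse as a block, where 125 of all 17345 genes fell. The part of myoepithelial content in the Acta2 and Tagln differences was not tested. Without the mouse as a block 0 of the 4 targets passed (unadjusted p from 0.241 for Acta2 to 0.415 for Ctgf), at log2 fold changes of -0.43 for Ctgf, 0.40 for Junb, -0.33 for Tagln and -0.45 for Acta2, close to those with it. Tgfbi, named for its induction by TGF-β, was at -0.10 (SE 0.11).

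**Figure D4:**
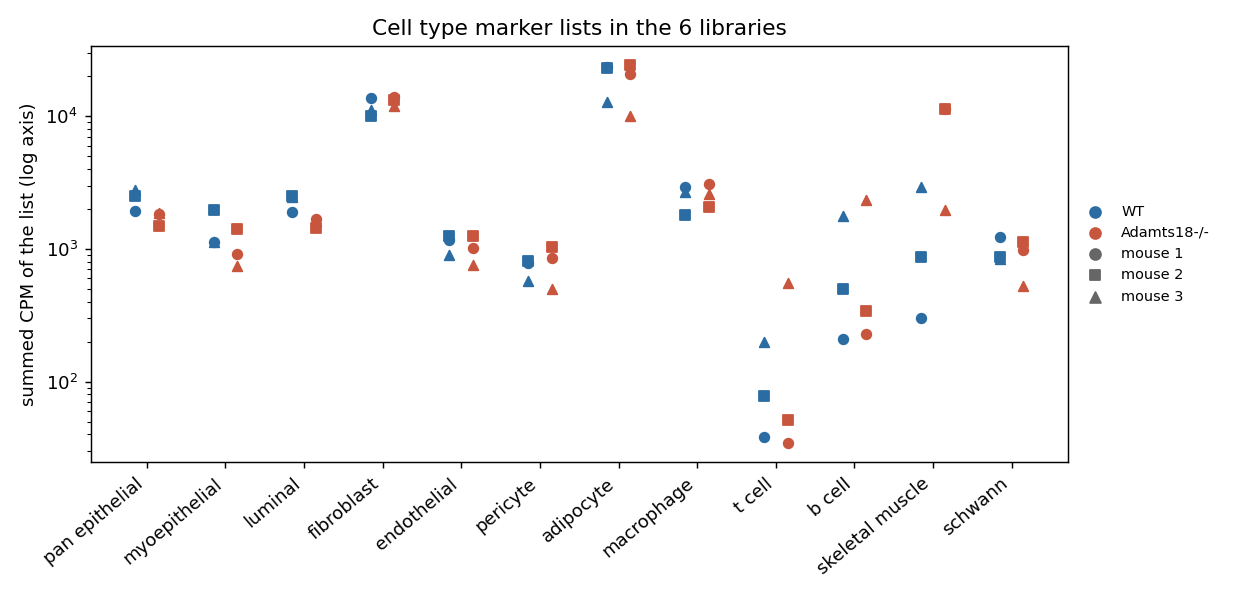
Summed CPM of each cell type marker list (y axis, log scale) in WT (blue) and Adamts18-/- (red) libraries of mice 1 (circles), 2 (squares) and 3 (triangles). The fibroblast and adipocyte sums lie above the epithelial sums in all 6 libraries, and the skeletal muscle sum spans 301 to 11413 CPM.

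The marker lists of the other cell types are given for their bearing on these levels. Fibroblasts are a main source of TGF-β ligands and LTBPs. Of their 12 markers 0 passed and the median log2 fold change was 0.0056, with sums of 13674, 10084 and 11042 CPM in WT and 13997, 13321 and 11975 CPM in Adamts18-/- libraries. The log2 ratio of the sums was 0.034, 0.40 and 0.12 in mice 1, 2 and 3. The median difference of the single markers was 0.020, 0.33 and -0.52, so that in mouse 3 sum and median went apart. The fibroblast markers Col1a1 and Col1a2 are also on the list of TGF-β targets. Of 14 tested luminal markers, 7 fell (median -0.51), against 12 without mouse 1, 3 without mouse 2 and 5 without mouse 3. Over all genes tested, 1.84% fell and 1.17% rose by the same rule. The genes that fell numbered 481 of 17596 without mouse 1, 214 of 17507 without mouse 2 and 286 of 17383 without mouse 3. All 10 endothelial, all 10 adipocyte and all 6 Schwann cell markers had a negative log2 fold change but 0 passed (medians -0.17, -0.13 and -0.21). Of 8 pericyte markers only Des rose, and none (0) did without mouse 1 or without mouse 2. Of 9 macrophage, 8 T cell and 6 B cell markers 0 passed (medians -0.0067, 0.26 and 0.57). The 10 skeletal muscle markers summed to 301 and 875 CPM in the WT libraries of mice 1 and 2 against 11413 and 11331 CPM in the Adamts18-/- libraries, and to 2909 and 1968 CPM in mouse 3 (median log2 fold change 3.00, 0 past the thresholds). Of these 10 markers, 7 rose without the mouse as a block, 8 by DESeq2, 2 by limma-voom and 1 without a filter on low counts. With epithelial scaling 10 rose, as did 10 without mouse 3 (9 of them by adjusted p). Of all 17345 genes, 218 rose without the block, 340 by DESeq2, 345 by limma-voom and 1311 with epithelial scaling. Without a filter 352 of 24591 genes rose. Without mouse 3, 581 of 17383 rose, and 268 were called by adjusted p in either direction. The part of these cell types in the levels of the TGF-β genes was not tested.

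The markers at the highest and lowest mean CPM over the 6 libraries were Krt19 (365) and Ovol1 (0.981) for epithelium, Acta2 (405) and Lgr6 (8.41) for myoepithelium, and Krt19 and Wap (0.0081) for luminal cells. For fibroblasts they were Col3a1 (3603) and Fbln1 (101), for endothelium Pecam1 (199) and Cldn5 (23.6), for pericytes Rgs5 (200.1) and Higd1b (2.91), and for adipocytes Cfd (5943) and Pparg (143). For macrophages they were Lyz2 (1036) and Emr1 (64.7), for T cells Lck (33.6) and Cd3d (10.1), for B cells Igj (779) and Pax5 (4.10), and for skeletal muscle Myh4 (2016) and Myh2 (12.8).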

How the data were processed

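RNA was measured in 6 libraries from 3 host mice by single-end sequencing of 85 bp reads. Per the labels and the submitters' processing notes, the authors used bcl2fastq 2.18, TopHat2 2.0.11, the build mm9 and featureCounts 1.6.2, and deposited raw counts of reads, whole numbers, for each gene symbol. Annotation, strand setting and treatment of multimapping reads are not given in the sources used here. Positions and exon lengths are therefore those of GENCODE M21 (GRCm38), a build other than that of the counts.

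The quasi-likelihood test of edgeR 4.0.16 (R 4.3.3), after filterByExpr and TMM scaling, was fitted with host mouse as a block. Benjamini-Hochberg adjustment ran over all 17345 genes. Log2 CPM used a prior count of 2, and differences within a mouse are on that scale. Contralateral glands share a mouse number in the labels, and deviations from the group means correlated at 0.512, 0.505 and 0.639 in mice 1, 2 and 3. As a check for duplicate libraries only, counts of any 2 libraries were compared (chi-square per degree of freedom at least 42.1). The p-values measure the spread between these 3 pairs.

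Named genes were the 10 genes, Adamts18, pathway genes always given, pathway genes past the thresholds, the highest and lowest marker of each list and, for each of the 10, the gene of most similar profile. Some genes that this rule selects are not reported here. Exceptions, named after their values were seen, were Ddx3y, Des, Lrrc33, Nedd4l, Usp15 and the genes named for single alternatives. The genes, lists and tests were chosen with earlier results of these data known. Alternatives were no block, DESeq2 1.42.0, limma-voom (limma 3.58.1), RLE, upper quartile and epithelial marker scaling, no filter, at least 10 counts in every library, adjusted p and leaving out each mouse.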

Additional observations from a re-analysis of the deposited data

How the results depend on the processing

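Of 110 comparisons of the log2 fold changes of the 10 genes with their values under 11 alternatives, 93 kept direction and side of the thresholds, 4 no longer passed, 1 newly passed and 12 changed sign. The cause was not tested. With the replicate block dropped, 1 of the 10 genes passed (Tgfb3) and 0 targets did, and Tgfb2 was at 0.026. Of all 17345 genes, 125 fell and 218 rose in that fit. Scaling to epithelial markers left 0 of the 10 past the thresholds, against 23 lower and 1311 higher of all 17345 genes. It moved the median of all genes to 0.42, and changed the sign of Tgfb2 (0.39), Tgfbr3 (0.21), Ltbp1 (0.24), Ltbp3 (0.16), Ltbp4 (0.074), Itgav (0.30), Itgb8 (0.099), Thbs1 (0.35), Furin (0.29), Tgfbi (0.32) and Tagln (0.081). All genes then split into 16622 positive and 723 negative, against 8704 and 8641. By adjusted p under 0.05, 0 of the 10 passed with edgeR (2 at an unadjusted p under 0.05; 1 with DESeq2), and DESeq2 called 2 of the 10 different between mice, against 19.2% of all genes. Tgfb2 was at 0.0046 by limma-voom, and Smad2 at -0.0040 with upper quartile scaling and -0.0025 without a filter.

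Leaving out a mouse changed how many of all genes passed the thresholds. It was 481 lower and 182 higher of 17596 without mouse 1, and 214 and 319 of 17507 without mouse 2. Without mouse 3 it was 286 lower and 581 higher of 17383. With each mouse left out in turn, 2 of the 10 genes passed: Tgfb3 and Ltbp2 without mouse 1 or mouse 3, and Tgfb3 and Ltbp4 without mouse 2. The log2 fold change then ranged from -0.073 to 0.21 for Tgfb1, -0.24 to 0.23 for Tgfb2, -0.038 to 0.070 for Tgfbr1, -0.083 to 0.22 for Tgfbr2, -0.34 to 0.0014 for Tgfbr3, -0.15 to 0.54 for Itgb6, -0.30 to 0.18 for Thbs1, -0.055 to 0.080 for Smad2 (-0.00093 without mouse 2), -0.023 to 0.030 for Smad4, -0.013 to 0.29 for Smad7 and -0.021 to 0.12 for Skil. The share differed by -0.31 to 1.04 points for Tgfbr1, -3.14 to 0.17 for Ltbp2 and -5.16 to 1.72 for Ltbp4 (1.35 without mouse 3). Of latency and activation genes 1 to 2 passed (Lrrc33 and Itgb8 without mouse 1, Lrrc32 without mouse 2, Fbn2 and Aspn without mouse 3), of signalling genes 0 to 1 (Pmepa1 without mouse 1, Wwp1 without mouse 3), and of targets 3 to 7, the 7 without mouse 1. Tagln was not called without mouse 1 or 3, and Adamts18 was not called without mouse 2. Adamts18 also lost the call without the mouse as a block (log2 fold change -0.90, unadjusted p = 0.0767, edgeR). With scaling to the epithelial markers it was at -0.40 (unadjusted p = 0.288, edgeR) and not called.

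For 5 of the 10 genes the exons overlap those of another annotated gene, whose reads could not be told apart.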

Other observations

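The gene outside the 10 whose profile over the 6 libraries was most like that of each was found by the root mean square (RMS) difference of log2 CPM, each gene centred on its own mean. It was Wdr91 for Tgfb1 (RMS 0.0197), Cd14 for Tgfb2 (0.0531), Ppil6 for Tgfb3 (0.0389), Mrpl35 for Tgfbr1 (0.0208), Cpxm1 for Tgfbr2 (0.0425) and Lims2 for Tgfbr3 (0.0363). For the latent binding proteins it was Dennd2c for Ltbp1 (0.0305), Col4a6 for Ltbp2 (0.0719), Kcnj2 for Ltbp3 (0.0229) and Dgkb for Ltbp4 (0.0629). Ppil6 and Dgkb were scarce, at means of 1.297 and 1.605 CPM. Cd14, a monocyte and macrophage receptor gene, averaged 70.0 CPM, and Col4a6, a basement membrane collagen gene, 61.3 CPM. Among the 10 genes themselves, the pairs nearest in profile were Ltbp1 and Ltbp3 (0.0966), Tgfb3 and Ltbp3 (0.123) and Tgfbr3 and Ltbp4 (0.160), and the farthest apart were Tgfb1 and Tgfbr3 (0.678). These are descriptions over 6 libraries that share hosts, with no test.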
